A study of Mus musculus with 4 samples.

Results

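The 10 genes described here encode proteins that set how long cytokine messages last: Zfp36, Zfp36l1, Zfp36l2, Zc3h12a, Zc3h12c, Rc3h1, Elavl1, Khsrp, Hnrnpd and Mapkapk2. They were chosen by symbol, and all 10 were found among the 55536 genes measured. The cells were primary macrophages that were derived from the marrow of C57BL/6J mice and exposed for 60 minutes to 100 ng/mL of a stimulus. In the labels it appears as lipid A in some fields and as lipoprotein A in others, so it is called the stimulus here. Polyadenylated RNA was sequenced in 4 libraries, labelled biological replicates 1, 2, 3 and 4, and these form the only group. They share a donor label, and separate animals or cultures are not stated, so the spread between libraries may be technical. The age of the mice is not recorded. No unstimulated cells were analysed here, so none of the values below measures a response to the stimulus.

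Many cytokine messages carry AU-rich elements in their 3′ untranslated region (UTR), which make them short-lived. Tristetraprolin, the product of Zfp36, binds these elements through tandem zinc fingers and recruits the CCR4-NOT deadenylase, after which the message is decapped and degraded. The kinase MK2, encoded by Mapkapk2 and activated by p38, phosphorylates tristetraprolin, which then binds 14-3-3 proteins and is less able to recruit the deadenylase. HuR, encoded by Elavl1, binds similar elements and is known for stabilising messages. Regnase-1 (Zc3h12a), its relative Zc3h12c and roquin-1 (Rc3h1) act on stem-loops in such messages instead, and KSRP (Khsrp) and AUF1 (Hnrnpd) are further AU-rich element-binding proteins.

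An AU-rich site of the kind that some of these proteins bind was present in cytokine messages of these cells and in some of the regulators' own messages. Stem-loops were not searched for. The 7-letter element UAUUUAU was counted on the sense strand, overlapping matches included, in the 3′ UTR of each gene's highest coding transcript that has an annotated stop codon and 3′ UTR. For Hnrnpd this was Hnrnpd-203 and not the transcript with the highest TPM, Hnrnpd-210. The windows below, of 30 bases each, hold the densest run of this element in 4 cytokine messages and 4 regulators, with the element in capitals. They are shown because they let the regulators' own UTRs be compared with those of their best-known targets.
Tnf: uUAUUUAUUAUUUAUUUAUUAUUUAUUUAU
Cxcl2: cuUAUUUAUUUAUcuaugUAUUUAUUUAUu
Il6: auuuaugauugaUAUUUAUuauuuuuauga
Il10: cucucuccgaaaUAUUUAUuaccucugaua
Zfp36: ccuuUAUUUAUgacgacuuUAUUUAUugua
Zfp36l1: cuuaucaaaacgUAUUUAUugccaaacuau
Zfp36l2: aacuauuuaacuUAUUUAUuaucuugugaa
Zc3h12c: ugcuauaaucauUAUUUAUaggaacaaaga

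The sequences came from the GENCODE M21 transcripts, on mm10. The Tnf window lies at chr17:35199678-35199707 on the minus strand and the Zfp36 window at chr7:28376958-28376987 on the minus strand, 570 bases past the stop codon. The Tnf window holds 5 matches, that of Cxcl2 4, that of Zfp36 2 and each of the others 1. Over whole UTRs, Zfp36, Zfp36l1 and Zfp36l2 each had 3 matches, in 774, 1835 and 1822 bases, and Zc3h12c and Rc3h1 each had 2, in 4062 and 7181 bases. None was found in Zc3h12a, Elavl1, Khsrp, Hnrnpd or Mapkapk2, which says only that these letters are not in the UTRs searched. For Elavl1 this was the 1257-base UTR of Elavl1-204. The 4218-base UTR of Elavl1-201, which held 29.3% of the gene's expected counts on average, was not searched. At least 1 match was present in 5 of the 10 regulators, in 13 of the 17 listed cytokine and feedback messages that reached 1 TPM in every library, and in 27.2% of 9602 genes at that level. TPM is a relative transcript level that is corrected for transcript length and sums to the same total in every library. Pooled over the whole length of their UTRs, the regulators held 0.61 matches per 1000 bases, the listed messages 4.66 and all those genes 0.3. Zfp36, at 3.88 per 1000 bases, was the densest of the 10. The listed messages were chosen as known targets, so their share describes the list.

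**Figure D1:**
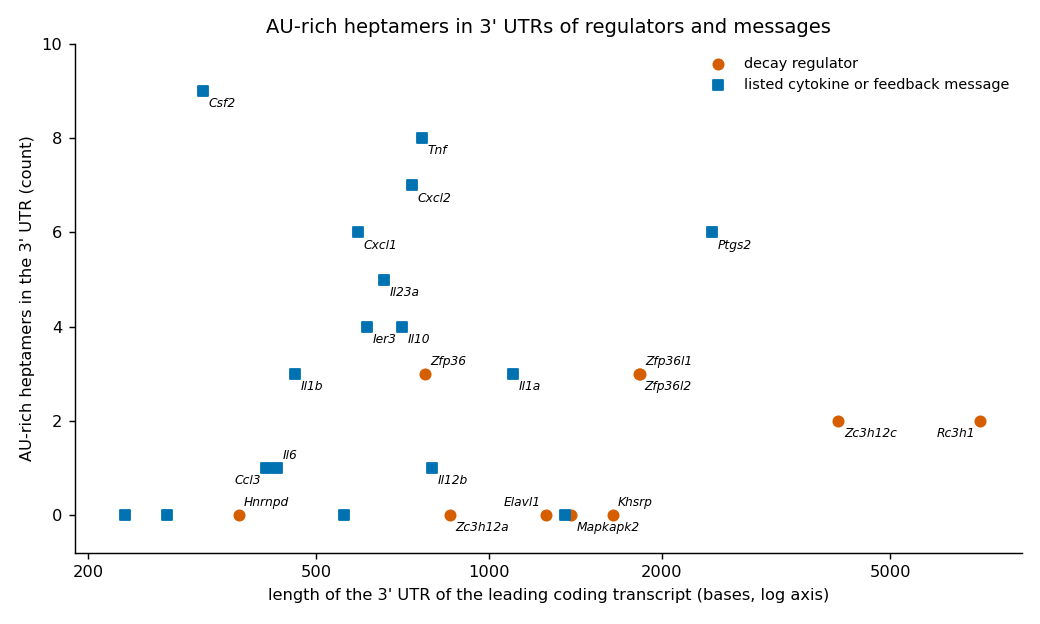
Count of the AU-rich heptamer in the 3′ UTR (vertical axis) against UTR length in bases (horizontal log axis) for the 10 regulators (circles) and the 17 listed messages at or above 1 TPM in every library (squares). Zfp36 has 3 matches in 774 bases, while Csf2 and Tnf, with 9 and 8, stand highest.

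All 10 regulators were expressed in every library, but over a wide range of levels. Zfp36 was the highest by far, ranking 67 among protein-coding genes by mean TPM, and Rc3h1 was the lowest at rank 6348. Zfp36 stood at 972.4, 1975.4, 1146.7 and 1720.5 TPM in replicates 1 to 4, with a mean of 1453.7 ± 472 TPM (SD, n = 4). Below it came Zfp36l1 at 308.5 ± 142 TPM, Mapkapk2 at 291.8 ± 121 TPM and Hnrnpd at 152.6 ± 47.9 TPM. The place of Hnrnpd leans on a short model of 493 bases, Hnrnpd-210. It held 41.1% of the gene's TPM on average but 10.5% of its expected counts. Means of 85.99 ± 26.2, 77.99 ± 16.4 and 69.59 ± 27.9 TPM were measured for Zfp36l2, Zc3h12a and Zc3h12c. Elavl1 at 41.94 ± 13 TPM, Khsrp at 29 ± 6.57 TPM and Rc3h1 at 10.42 ± 2.03 TPM completed the order (SD, n = 4 for each gene). Only 2 steps in this order were free of overlap between libraries: every library had more Zfp36 than any library had Zfp36l1, and every library had more Khsrp than any had Rc3h1. Elavl1 lay above Khsrp in 4 of 4 libraries although their ranges overlapped, and each of the other 6 neighbouring pairs kept its order in 3 of 4 libraries, so those neighbours did not differ beyond their spread. The median regulator had a mean of 82.0 TPM, and the median of all 12626 genes tested for variation was 11.3 TPM.

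**Figure D2:**
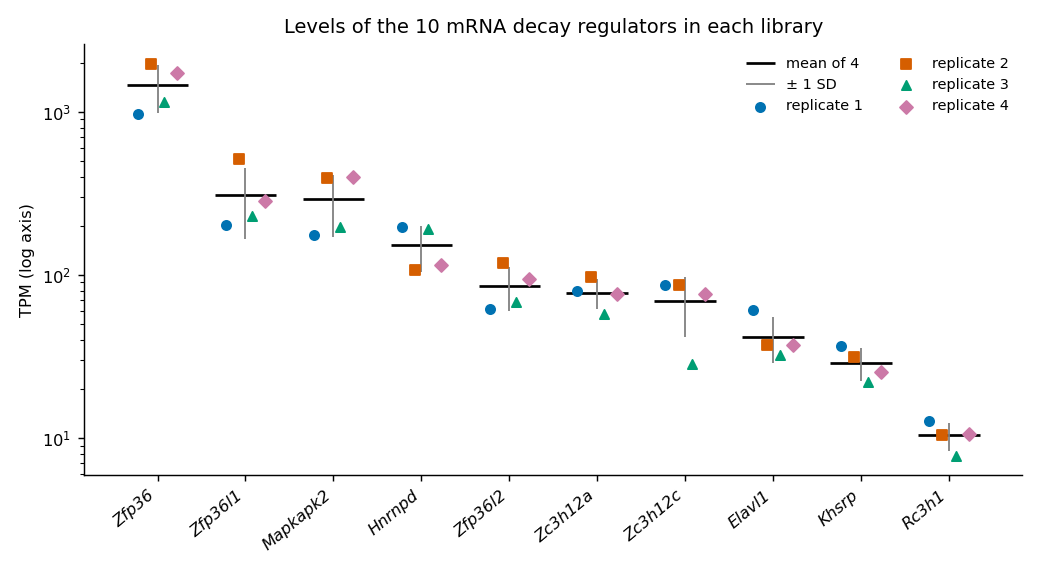
TPM (vertical log axis) of the 10 regulators in each library, ordered by mean. Points are the 4 libraries, horizontal bars their mean and vertical lines 1 SD to each side. Zfp36 lies at or above 972.4 TPM in every library, and the range of each middle gene overlaps that of its neighbours.

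Depth was ample for these genes. The libraries held 26917324 to 39438414 expected counts over genes, and the regulators held between 1795 (Elavl1, replicate 2) and 114055 (Zfp36, replicate 4). The share of counts on ribosomal RNA genes, with mitochondrial ribosomal RNA included, was 12.428, 3.426, 4.7 and 7.279% in replicates 1 to 4. All 7 macrophage markers reached 1 TPM in every library, with summed levels of 18582.2, 33432.3, 19202.9 and 26404.7 TPM. The 8 neutrophil and granulocyte precursor markers summed to 197.9, 108, 727.7 and 69 TPM, and each of the 5 other marker lists to at most 3.22 TPM in any library. In bulk RNA, a change in the share of cells and a change of RNA per cell cannot be told apart.

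The 3 tristetraprolin relatives share the tandem zinc fingers that bind AU-rich elements. The coding stretch of the fingers is printed for each, 174 bases for 58 residues, with the codons of the 8 zinc-binding cysteines and histidines in capitals. It is shown because reads from this stretch are where the 3 messages could be confused in counting.
Zfp36: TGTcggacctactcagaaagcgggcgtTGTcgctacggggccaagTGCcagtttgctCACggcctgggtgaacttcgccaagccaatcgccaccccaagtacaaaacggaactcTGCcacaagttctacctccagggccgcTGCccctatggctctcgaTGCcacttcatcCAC
Zfp36l1: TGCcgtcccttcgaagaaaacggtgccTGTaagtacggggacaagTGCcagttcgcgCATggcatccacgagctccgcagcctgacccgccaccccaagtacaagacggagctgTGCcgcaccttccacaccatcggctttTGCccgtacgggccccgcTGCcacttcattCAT
Zfp36l2: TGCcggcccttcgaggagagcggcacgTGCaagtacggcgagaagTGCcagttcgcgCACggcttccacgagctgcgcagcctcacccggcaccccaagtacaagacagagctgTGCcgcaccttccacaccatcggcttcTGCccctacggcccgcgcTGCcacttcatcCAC

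These stretches lie at chr7:28378044-28378217, chr12:80110075-80110248 and chr17:84186554-84186727, all on the minus strand of mm10, each inside a single coding exon. Over the 174 bases, Zfp36l1 and Zfp36l2 were identical at 152 positions, Zfp36 and Zfp36l2 at 120, and Zfp36 and Zfp36l1 at 118. Of the 58 residues the bases encode, 54, 40 and 39 were identical in the same pairs. The longest run of bases shared exactly by whole transcripts was 32 for Zfp36l1 and Zfp36l2, 18 for Zfp36 and Zfp36l2, and 17 for Zfp36 and Zfp36l1.

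Zfp36 supplied most of the family's messages in every library. Its share of the TPM of the 3 genes was 78.6, 75.7, 79.3 and 81.9% in replicates 1 to 4, or 78.9% ± 2.57 (SD, n = 4). Zfp36l1 held 16.4% ± 2.54 and Zfp36l2 4.7% ± 0.231. Zfp36l1 (chr12:80107754-80113013, minus strand), a family member also known for cell cycle and differentiation roles, stood at 202.6, 515.3, 231.1 and 284.9 TPM. Replicate 2 was the highest and replicate 1 the lowest. Zfp36l2 (chr17:84183931-84187947, minus strand), known for roles in lymphocyte and blood stem cell development, stood at 61.98, 119.2, 68.51 and 94.26 TPM, with the libraries in the same order as for Zfp36. The ratio of Zfp36 to Zfp36l2, 15.7, 16.6, 16.7 and 18.3 in the 4 libraries, varied by 6.33% of its mean (SD), while Zfp36 itself varied by 32.5%. The fourth mouse family member, Zfp36l3, was listed at 0 in every library.

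Mapkapk2, the gene of the kinase that acts on tristetraprolin (chr1:131053700-131097826, minus strand), stood at 176.3, 395.7, 197.8 and 397.4 TPM in replicates 1 to 4. Replicates 2 and 4 were about alike. Their lower value was 2.0-fold the higher of replicates 1 and 3 in TPM, and between 1.5 and 2.0-fold on the 6 scales described below. The ratio of Zfp36 to Mapkapk2 was 5.52, 4.99, 5.8 and 4.33, with a highest-to-lowest ratio of 1.34.

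Whether the libraries differed by more than counting error was asked gene by gene. Expected counts were rounded, scaled by effective library size, and compared with counting noise by a chi-square test (3 degrees of freedom). The Benjamini-Hochberg adjustment ran over the 12626 genes whose mean count reached 10. All 10 regulators exceeded counting noise at an adjusted p below 0.05, as did 88.6% of all genes tested, so passing this test says little at this depth. A gene was called variable when its scaled counts also differed at least 2-fold between libraries. This held for 4 of the 10 regulators, Zc3h12c, Zfp36l1, Mapkapk2 and Zfp36, against 33.0% of all genes tested, a share near that of the regulators. The highest-to-lowest ratios of their scaled counts were 2.89, 2.6, 2.47 and 2.07. Just under the threshold lay Zfp36l2 at 1.97, then Hnrnpd at 1.79, Zc3h12a at 1.58, Khsrp at 1.54, Rc3h1 at 1.48 and Elavl1 at 1.47. The median regulator had an SD of 0.43 over libraries on the log2(CPM + 1) scale, where CPM is the scaled count relative to library size, and the median of all genes tested was 0.27. Without replicate 2, Zfp36 and Zfp36l1 were no longer called, leaving 2 of the 10 (Zc3h12c and Mapkapk2), against 27.7% of all genes. The ratio was then 1.96 for Zfp36, just under the threshold, and 1.53 for Zfp36l1. Without replicate 3, Zc3h12c was no longer called and its ratio was 1.07, and 26.5% of all genes were called. Without replicate 1 Zfp36 was not called, at 1.61, nor was it in the second quantification, at 1.96; over all genes, 16.1% were called without replicate 1.

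The regulators followed different orders of libraries. Zfp36, Zfp36l1, Zfp36l2 and Mapkapk2 were each higher in replicates 2 and 4 than in replicates 1 and 3, on all 6 scales examined (3 kinds of TPM and 3 of scaled counts). Zc3h12a did so on 4 of the 6, by at most 1.09-fold. On scaled counts this order held for 5 of the 10 regulators, and for 26.6% of all genes tested; it was noticed in these data and was not tested. The summed macrophage markers were also higher in replicates 2 and 4 than in replicates 1 and 3, and their part in this order was not tested. Hnrnpd had the opposite order, with replicates 1 and 3 above 2 and 4 on all 6 scales. Replicate 1 held the highest values of Elavl1, Khsrp and Rc3h1 on all 6 scales, as it did for 35.8% of all genes tested on scaled counts. Its share of ribosomal RNA counts, 12.428%, was also the highest of the 4, and the part of that share in this order was not tested.

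**Figure D3:**
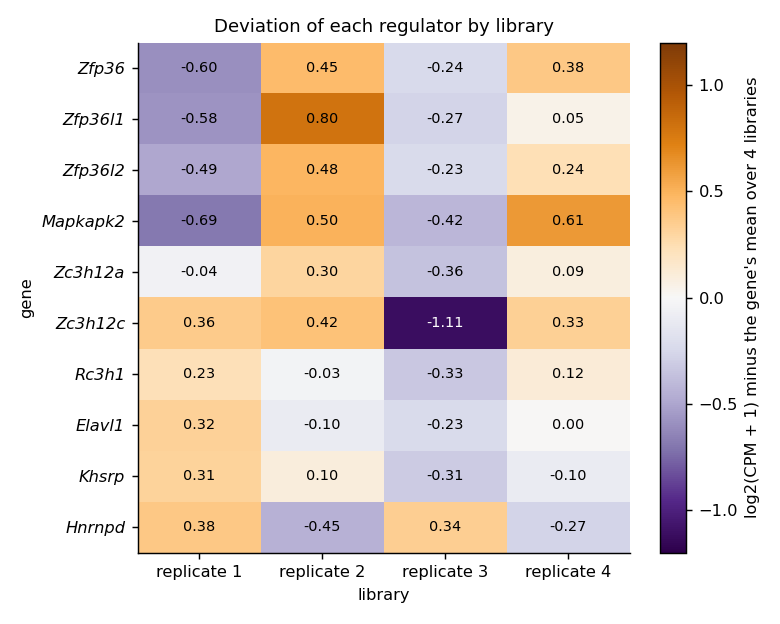
Deviation of log2(CPM + 1) from each gene's own mean over the 4 libraries, with rows for the 10 regulators and columns for replicates 1 to 4; purple is below the mean and orange above. Zfp36, its relatives and Mapkapk2 are below their means in replicates 1 and 3, Hnrnpd is above its mean there, and Zc3h12c is 1.11 below its mean in replicate 3.

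The authors' own credibility intervals for TPM, whose level is not stated, were also set side by side. For 5 of the 10, Zfp36, Zfp36l1, Zfp36l2, Khsrp and Mapkapk2, the intervals of the 4 libraries did not overlap in any of the 6 pairs. The same was true of 8.51% of the 10250 genes at or above 1 TPM in every library. The median was 5.5 of 6 pairs for the regulators and 3 of 6 for those genes. Such intervals cover the uncertainty of assigning reads within a library and narrow as counts grow. The median regulator stood at 82.0 TPM and the median gene tested for variation at 11.3 TPM, and the part of level in this share was not tested.

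The lists of read files name 6 files for each of replicates 1 and 2 and 4 files for each of replicates 3 and 4, a recorded technical difference that no source calls a batch. With edgeR's quasi-likelihood test and Benjamini-Hochberg adjustment, no regulator differed between libraries with 6 and with 4 read files, and 0.0% of 12701 genes did. At an unadjusted p below 0.05 there were 290 genes and none of the regulators, and DESeq2 called 37 genes, none of them a regulator. Without replicate 2 the edgeR test called 98 genes and without replicate 1 it called 1, again none of the regulators. Zc3h12c had the widest difference, at 364 CPM in libraries with 6 read files and 237.9 CPM in those with 4 (log2 0.62 ± 0.48 SE, adjusted p = 1). The log2 differences of the others lay between -0.15 (Mapkapk2) and 0.41 (Khsrp). These values moved with single libraries. For Zc3h12c the difference was 1.49 without replicate 4 and 0.08 without replicate 3. For the others it ran from -0.91 (Mapkapk2 without replicate 2) to 0.9 (Zfp36l1 without replicate 1), and its sign changed for 5 of the 10, Zfp36, Zfp36l1, Zfp36l2, Hnrnpd and Mapkapk2, when 1 library or another was left out.

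The regulators of stem-loop decay stood well below Zfp36. Zc3h12a (chr4:125118423-125127840, minus strand), the RNase known to cut Il6 and other inflammatory messages, stood at 80.17, 97.42, 57.47 and 76.89 TPM in replicates 1 to 4. Zc3h12c (chr9:52111344-52168572, minus strand), a related RNase, stood at 86.36, 87.43, 28.45 and 76.1 TPM. Replicate 3 was the lowest for both, and for Zc3h12c it lay far from the other libraries. Replicate 3 was also the library with the highest neutrophil markers, at 727.7 TPM in sum against at most 197.9 TPM elsewhere, and their part in the low Zc3h12c value was not tested. Rc3h1 (chr1:160906418-160974978, plus strand), whose product roquin-1 recruits deadenylases to stem-loops, stood at 12.77, 10.44, 7.82 and 10.64 TPM, a narrow spread. Its paralog Rc3h2 was of like level, at 8.22 ± 0.83 TPM. The third relative of Zc3h12a, Zc3h12d, stood at 12.64 ± 2.15 TPM, and Zc3h12b at 0.09 ± 0.0733 TPM (SD, n = 4).

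Elavl1, the stabilising member of the set (chr8:4285382-4325413, minus strand), stood at 61.09, 37.46, 32.2 and 36.99 TPM in replicates 1 to 4. Replicate 1 lay above the others, and by less on scaled counts, at 80.05, 59.6, 54.5 and 63.98 CPM. Of the TPM, the 613-base retained-intron model Elavl1-203 held 11.06, 4.28, 0.27 and 0.74 in replicates 1 to 4. Set against Elavl1 within each library, the summed TPM of the 3 tristetraprolin genes was higher by 4.34, 6.12, 5.49 and 5.83 log2 units. The mean was 5.44 ± 0.78 (SD, n = 4). Zfp36l2 by itself exceeded Elavl1 by 0.02 log2 units in replicate 1 and by 1.67 in replicate 2. These are ratios of messages and carry no information on protein. Of its relatives Elavl2, Elavl3 and Elavl4, known from neurons, none passed 0.04 TPM in any library.

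Khsrp (chr17:57021051-57031522, minus strand), whose product binds AU-rich elements and recruits decay enzymes, stood at 36.91, 31.53, 22.08 and 25.47 TPM. Hnrnpd (chr5:99955935-99978938, minus strand), whose product AUF1 can speed or slow decay depending on message and isoform, stood at 196.4, 107.3, 191.4 and 115.1 TPM. The 2 high and the 2 low libraries of Hnrnpd did not overlap in level. The ratio of Zfp36 to Hnrnpd accordingly ran from 4.95 in replicate 1 to 18.4 in replicate 2. The Hnrnpd relative Hnrnpab was higher than Hnrnpd, at 274.2 ± 128 TPM, and was called variable, with its highest level in replicate 1 (457.3 TPM).

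Transcripts were compared as shares of each gene's TPM in the 2 transcript tables, of which the first rests on an alignment to the transcriptome and the second was made without it. In the first of these, 7 of the 10 regulators had a leading transcript with at least 90% of the gene's TPM. The exceptions were Zfp36, Elavl1 and Hnrnpd; in the second table Zc3h12a joined them, with 89.6% on Zc3h12a-201.

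For Zfp36, the spliced transcript Zfp36-201 led with 83.3% ± 7.4 in the first table (SD, n = 4). The other annotated transcript, Zfp36-202, is a single exon at chr7:28376791-28379255 that spans the 680-base intron of Zfp36-201 at chr7:28378494-28379173. Its share was 19.9, 24.3, 15.7 and 6.93% in the first table and 11.2, 19.7, 6.96 and 3.42% in the second, for replicates 1 to 4. The libraries ranked the same in both tables, with replicate 2 highest and replicate 4 lowest, although the mean share was 16.7% in the first and 10.3% in the second. Both tables thus placed RNA in all 4 libraries on a model that keeps the intron. This model also begins at 28379255, whereas Zfp36-201 begins farther upstream at 28380253, so the 2 models differ at the 5′ end too. The part of that difference in the shares was not tested. Over the whole first table, transcripts annotated as retained intron held 2.33, 3.06, 3.31 and 2.85% of TPM, and Zfp36-202 is annotated as protein-coding and is not among them.

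Zc3h12a had a retained-intron transcript of 660 bases, Zc3h12a-202, at 5.7, 3.74, 2.09 and 1.03% in the first table and at 14.6, 9.11, 9.89 and 7.95% in the second. Replicate 1 was highest and replicate 4 lowest in both tables. Zc3h12a-202 held 0.521% of the gene's expected counts on average, so its TPM share rests on few reads. For Elavl1, both tables were led by Elavl1-204, with a mean of 79.2% in the first and 79.8% in the second. This transcript has a 3′ UTR of 1257 bases, while Elavl1-201, with 12.6% and 9.27%, has the same 978 coding bases and a 3′ UTR of 4218 bases. By expected counts, Elavl1-204 held 69.3% and Elavl1-201 29.3% on average. The models also differ at the 5′ end, since Elavl1-204 begins at 4312619 and Elavl1-201 at 4325413. Elavl1-203, a retained-intron model of 613 bases, held 18.1, 11.4, 0.839 and 2% in the first table and 21.1, 16.9, 0.909 and 4.11% in the second. Replicates 1 and 2 were thus well above replicates 3 and 4 in both tables, the split that the number of read files also follows. Of the gene's expected counts Elavl1-203 held 1.31% on average, so its TPM share rests on few reads over a short model.

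**Figure D4:**
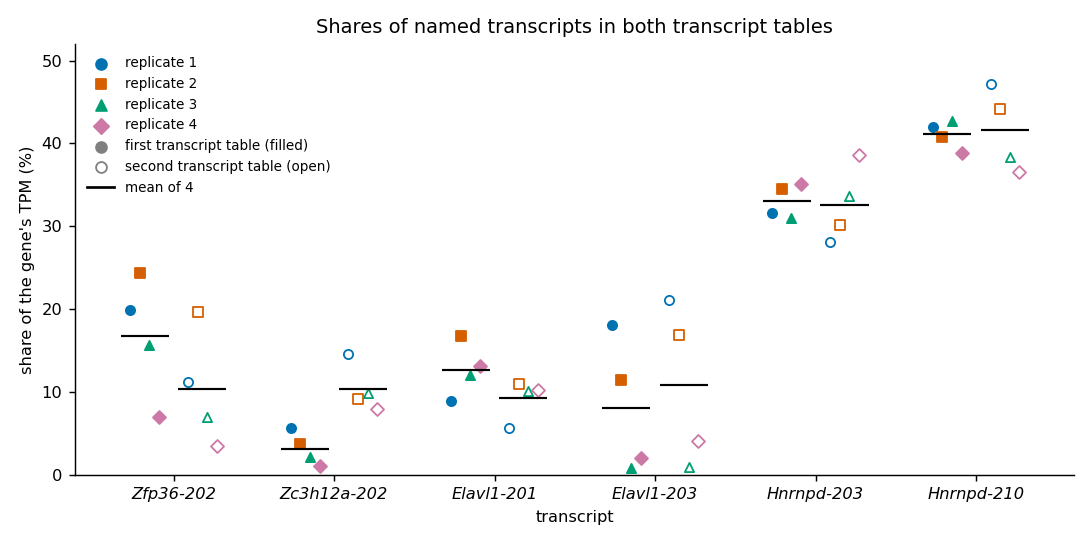
Share of the gene's TPM (percent, vertical axis) on 6 transcripts in each library. Filled points are the first transcript table, open points the second and bars the mean of 4 libraries. Elavl1-203 separates replicates 1 and 2 from replicates 3 and 4 in both tables, and Zfp36-202 is lowest in replicate 4 in both.

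Hnrnpd is known for protein isoforms made by including or skipping a pair of exons, a 57-base exon that codes 19 residues near the start and a 147-base exon that codes 49 residues near the end. Both are printed here because transcript shares are read from them.
57-base exon: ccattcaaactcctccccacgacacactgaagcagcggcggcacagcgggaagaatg
147-base exon: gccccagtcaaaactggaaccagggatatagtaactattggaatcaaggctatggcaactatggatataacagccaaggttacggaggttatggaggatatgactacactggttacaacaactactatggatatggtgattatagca

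They lie at chr5:99976534-99976590 and chr5:99963731-99963877 on the minus strand of mm10. Each is held whole by 4 of the 11 annotated Hnrnpd transcripts, and only these are counted below as having it. Hnrnpd-208 begins inside the 57-base exon and was not counted among its 4. It held 9.47% of TPM in the first table, 7.57% in the second and 8.97% of expected counts. Transcripts with the 57-base exon held 50.2% ± 3.02 of the gene's TPM in the first table and 47.6% ± 4.41 in the second (SD, n = 4). For the 147-base exon the shares were 35.7% ± 2.81 and 35.5% ± 4.69. The 57-base share rests mostly on Hnrnpd-210, a model of 493 bases that held 41.1% of TPM but 10.5% of expected counts. The annotated Hnrnpd-210 ends before it reaches the 147-base exon, so it shows neither inclusion nor skipping of that exon. Likewise, Hnrnpd-204, Hnrnpd-206 and Hnrnpd-209 begin past the 57-base exon and show neither inclusion nor skipping of it. The shares given for either exon are therefore not rates of its inclusion. The leading transcript by counts was Hnrnpd-203, which has the 147-base exon and lacks the 57-base exon, with 33.1% of TPM and 51.3% of expected counts. By expected counts, transcripts with the 57-base exon held 31.9% and those with the 147-base exon 57.7%, so the order of the 2 exons depends on whether reads or reads per length are counted. This held in each of the 4 libraries. In the first table the 147-base share was 33.3% in both replicates 1 and 3, where the gene was high, and 38.7 and 37.5% in replicates 2 and 4; in the second table it was 29.4 and 36.5% against 35.5 and 40.7%, with no such separation.

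The promoters of Zfp36, Zfp36l1 and Mapkapk2 are printed because these genes were called variable and shared an order of libraries. Each is a 300-base window around the RefSeq start on GRCm38.p6, with matches to the searched motifs in capitals.
Zfp36: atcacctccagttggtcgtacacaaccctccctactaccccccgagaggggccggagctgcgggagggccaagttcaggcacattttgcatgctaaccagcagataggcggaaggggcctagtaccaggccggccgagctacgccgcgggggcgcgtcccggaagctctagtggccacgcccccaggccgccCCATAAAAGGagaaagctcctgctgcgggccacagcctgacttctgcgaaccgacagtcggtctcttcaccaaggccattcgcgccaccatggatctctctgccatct
Zfp36l1: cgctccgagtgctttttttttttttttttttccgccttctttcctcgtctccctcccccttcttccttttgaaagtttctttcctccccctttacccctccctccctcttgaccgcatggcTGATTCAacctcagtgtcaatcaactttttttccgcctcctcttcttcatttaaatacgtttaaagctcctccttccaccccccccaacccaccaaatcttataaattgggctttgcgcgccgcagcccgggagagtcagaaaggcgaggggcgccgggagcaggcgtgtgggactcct
Mapkapk2: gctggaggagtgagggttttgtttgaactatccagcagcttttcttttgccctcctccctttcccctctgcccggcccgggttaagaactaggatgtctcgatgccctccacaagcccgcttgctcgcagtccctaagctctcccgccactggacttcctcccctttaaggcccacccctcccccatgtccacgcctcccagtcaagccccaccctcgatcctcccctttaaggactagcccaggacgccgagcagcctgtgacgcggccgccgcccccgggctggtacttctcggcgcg

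The windows lie at chr7:28379179-28379478, chr12:80112964-80113263 and chr1:131097794-131098093, all on the minus strand. The motifs searched, on both strands, were the CArG box bound by serum response factor and the NF-κB site, both by name, the AP-1 site TGANTCA, the cyclic AMP response element TGACGTCA and the EGR site GCGTGGGCG. Only matches on these exact letters were counted, and no motif overlapped another in the windows printed. The Zfp36 window holds a CArG box that begins 58 bases before the start, a match found in 1.63% of 32851 promoters in the table. The Zfp36l1 window holds an AP-1 site that begins 129 bases before the start (7.81% of promoters), and the Mapkapk2 window holds no match. Promoters were given for 9 of the 10 regulators; among the others, Hnrnpd holds a CArG box at its start and Rc3h1 an AP-1 site. At least 1 of the 5 motifs is found in 15.6% of all promoters, the NF-κB site in 4.51%, the cyclic AMP response element in 1.79% and the EGR site in 0.612%. No window of a regulator holds an NF-κB, cyclic AMP or EGR match, which draws nothing about those factors.

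The RefSeq start of Zfp36 at position 28379228 lies 1025 bases inside the GENCODE model Zfp36-201, which begins at 28380253 on the same strand. The TPM of Zfp36 is the sum over its 2 transcripts. Only the part on Zfp36-201, 83.3% on average in the first transcript table, is per base of this longer model.

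Genes of the machinery that these regulators work with were read as lists, 1 for each step or complex. Of 18 genes of the CCR4-NOT complex and other deadenylases, all reached 1 TPM in every library, at a median of 20.8 TPM, and 3 were called variable, against 33.0% of all genes. The scaffold gene Cnot1 stood at 38.27 ± 6.66 TPM (SD, n = 4). The list's highest gene was Btg2, a deadenylase-binding antiproliferative gene, at 87.72, 245, 144.9 and 224.4 TPM in replicates 1 to 4, and its lowest was Pan2 at 2.77 ± 0.768 TPM. The 3 called were Btg2, Btg1 and Tob2, whose products bind the complex, and their relative Tob1 was not called, at a ratio of 1.32. Replicates 2 and 4 were above replicates 1 and 3 for 7 of the 18, Btg2 and Tob2 among them, against 26.6% of all genes. All 16 genes of decapping and 5′ decay reached 1 TPM in every library, at a median of 18.2 TPM, from the helicase gene Ddx6 at 69.97 ± 9.02 TPM down to Edc3 at 3.82 ± 0.377 TPM. In this list 4 of 16 were called variable, against 33.0% of all genes. They were Lsm2, Lsm4, Lsm6 and Lsm7, which encode subunits of the Lsm ring, while Lsm1, Lsm3 and Lsm5 were not called.

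The RNA exosome and Ski complex had a median of 13.5 TPM, and 6 of 14 tested genes were called variable, against 33.0% of all genes. Of these 14, 10 were highest in replicate 1, against 35.8% of all genes tested. The catalytic subunit gene Dis3 stood at 10.59, 2.19, 4.3 and 2.56 TPM in replicates 1 to 4, so replicate 1 lay apart. The list's highest gene was Wdr61 at 35.22 ± 9.37 TPM, and Exosc6 was listed at 0 in every library. Replicate 1 also held the largest share of ribosomal RNA, whose part in this was not tested.

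Upstream of MK2, 9 of 13 genes of the p38 module reached 1 TPM in every library. The p38α gene Mapk14 stood at 53.62 ± 11.3 TPM (SD, n = 4), while Mapk11, Mapk12 and Mapk13 each averaged below 1 TPM. Dusp1, the phosphatase that switches p38 off, was the highest of the list at 939.4 ± 154 TPM. Only Mapk11 was called variable of the 11 genes tested, against 33.0% of all genes. The MK2 relatives Mapkapk3 and Mapkapk5 stood at 40.28 ± 10.4 and 41.67 ± 5.52 TPM, and neither reached the lowest library of Mapkapk2 in any library. All 7 genes of the 14-3-3 proteins, which bind phosphorylated tristetraprolin, reached 1 TPM in every library at a median of 146 TPM, from Ywhae at 316.1 ± 55.2 TPM to Sfn at 2.14 ± 0.424 TPM. None of the 7 was called variable, against 33.0% of all genes, and 6 of them were highest in replicate 1, against 35.8%.

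Among the 13 other RNA-binding proteins of AU-rich or stem-loop elements, 12 reached 1 TPM in every library, at a median of 36.3 TPM. Ybx1 was the highest at 588 ± 34 TPM and Igf2bp3 the lowest at 1.38 ± 0.465 TPM. Arid5a, whose product is known to protect Il6 messages from Regnase-1, stood at 18.1, 36.81, 17.37 and 31.77 TPM, with replicates 2 and 4 on top. This order held for 2 of the 13 genes of the list, against 26.6% of all genes. The paralogs of the 10 regulators reached 1 TPM in every library for 8 of 13 genes, at a median of 12.6 TPM. In these lists 3 of 13 and 3 of 8 tested genes were called variable, against 33.0% of all genes.

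The messages on which these regulators are known to act had the highest median of the 9 lists. The 20 listed genes had a median of 287 TPM, against 82.0 TPM for the regulators, from Tnf at 5552.1 ± 1020 TPM (SD, n = 4) to Icos at 0.07 ± 0.0746 TPM, and 10 of the 18 tested were called variable, against 33.0% of all genes. Tnf stood above Zfp36 in every library, by 6.11, 2.85, 3.6 and 3.79-fold in TPM. The 5 widest ratios of scaled counts between libraries were those of Il6 (9.49), Csf3 (7.3), Il12b (6.65), Il10 (5.61) and Lcn2 (5.48). In the order of replicates 1 to 4, Il6 had 4.93, 36.95, 6.4 and 41.72 TPM, Il12b 45.36, 119.5, 17.06 and 80.06 TPM, and Il10 127.7, 575, 384.6 and 664.1 TPM. These 3 were higher in replicates 2 and 4 than in replicates 1 and 3. Csf3, at 4.45, 1.98, 2.21 and 0.56 TPM, was highest in replicate 1, and Lcn2, at 9.64, 7.23, 23.78 and 4.28 TPM, in replicate 3. In the whole list 7 of the 18 tested had replicates 2 and 4 on top, against 26.6% of all genes.

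**Figure D5:**
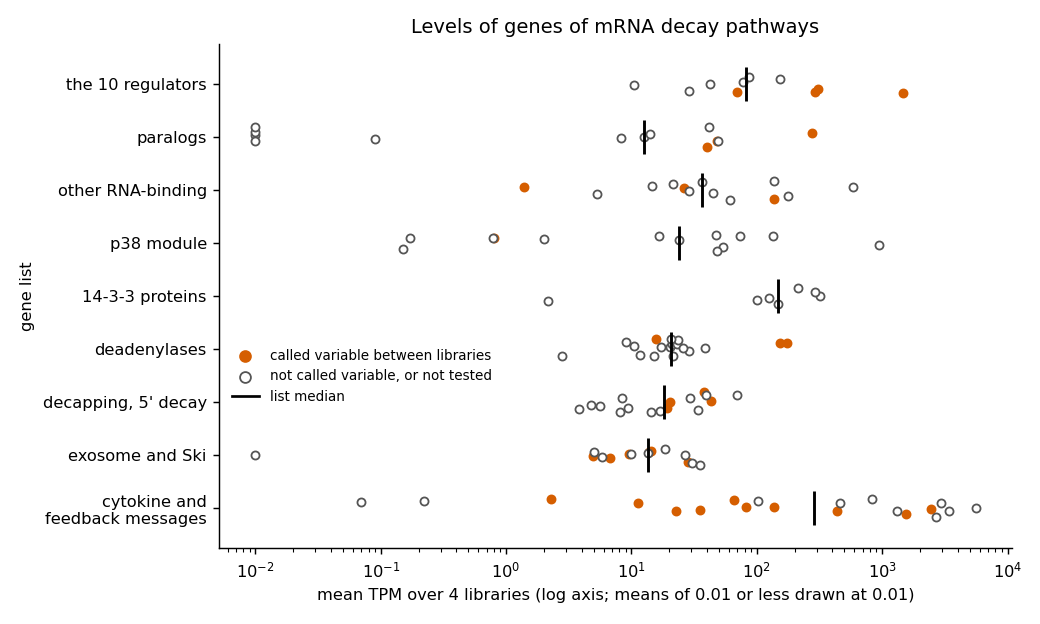
Mean TPM over 4 libraries (horizontal log axis) of each gene in the 9 lists (rows). Filled points were called variable between libraries, open points were not or were not tested, and vertical bars are list medians. The median of the 10 regulators, 82.0 TPM, lies above the medians of the deadenylase, decapping and exosome lists and below that of the cytokine and feedback messages, while single genes of the lists overlap.

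For the regulators called variable, the protein-coding genes with the most similar pattern over the 4 libraries were sought among 9636 genes by the root mean square difference of centred log2(CPM + 1). For Zfp36 these were Rassf5 (0.0164 log2 units), Mllt6 (0.0189) and Nckap5l (0.0245). The likeness is one of scaled counts: in TPM, Nckap5l stood at 3.84, 14.51, 13.65 and 20.17 in replicates 1 to 4, which is not the order of Zfp36. For Zfp36l1 they were Hcar2 (0.0714), Slc12a9 and Atp13a2, and for Mapkapk2 they were Lipe (0.0312), Gm5431 and H1f0. For Zc3h12c they were Gja1 (0.0785), Fdft1 and Igfbp4. With 4 libraries, many genes can lie this close, and the list is a description.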

How the data were processed

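Polyadenylated RNA-seq of 4 libraries of 1 group was used. The authors deposited, for each library, a gene table and a transcript table made from a transcriptome alignment, and a second transcript table made straight from the reads, on mm10 with GENCODE M21, per the deposited text lists of files. Per the file headers, the gene and first transcript tables hold expected counts, which are estimates, and TPM as a maximum likelihood and a posterior mean estimate. In the other transcript table, the deposited estimated counts and TPM are per transcript; their sums over each gene are called the second quantification. The authors' credibility bounds of TPM are treated as a signal, and no source gives their level. The aligner, the counter, their versions and the strand setting: not given in the sources used here, so reads of overlapping genes on opposite strands may not have been separated.

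Rows that name no gene (0.1028 to 0.1176% of counts) were left out. Expected counts were rounded. TMM in edgeR 4.0.16 (R 4.3.3) gave effective library sizes, and DESeq2 1.42.0 served as an alternative. The chi-square test covered counting error only, and reads are not independent molecules. The contrast by read files used edgeR's quasi-likelihood test on genes kept by its expression filter. The common biological coefficient of variation was 0.31. Both tests were checked on simulated data. Python 3.11.15 with SciPy 1.17.1, pandas 2.3.3 and statsmodels 0.14.6 did the rest, and matplotlib 3.10.9 drew the figures. Zinc finger stretches were found by the spacing of cysteine and histidine codons in the GENCODE transcripts, and promoters came from RefSeq (GRCm38.p6). Sequences of proteins were not used here.

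The 10 genes, the gene lists and the tests were chosen with earlier results of these data known. All 10 are named; from each list the highest and lowest gene by mean TPM and up to 4 whose roles are needed beside a regulator are named, and transcripts with at least 10% of the gene's TPM in either table. Genes named as called variable in a list (Btg1, Tob2, Lsm2, Lsm4, Lsm6, Lsm7), their relatives named as not called (Tob1, Lsm1, Lsm3, Lsm5), Csf3, Il12b, Lcn2 and Dis3 were chosen after their values were seen. Alternatives tried were other TPM estimates, other scaling, filters, thresholds, DESeq2, the second quantification and leaving out each replicate.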

Additional observations from a re-analysis of the deposited data

How the results depend on the processing

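The median level of the 10 regulators, 82.0 TPM, was 100.0 TPM when TPM was rescaled over nuclear protein-coding genes. It was 65.9 TPM in the second quantification and lay between 73.2 and 88.3 TPM with a replicate left out. The mean of Zfp36, 1453.7 TPM, was 1049.4 TPM in the second quantification. The count of regulators called variable, 4 of 10 against 33.0% of all genes, was 8 at a 1.5-fold threshold, against 58.2%. In the second quantification it was 3, against 36.1% of all genes. With a replicate left out it was 2 to 5, against 16.1 to 29.2%. Without replicate 4, Zfp36l2 joined the 4. Over all genes the count, 4167 of 12626, was 7347 at 1.5-fold and 5168 of 14302 in the second quantification. It was 2048 to 3683 with a replicate left out, the lowest without replicate 1. The contrast by read files called 18 genes with no filter on low counts, 37 with DESeq2, and 0 to 98 with a replicate left out (98 without replicate 2), which leaves 1 library on a side that is assumed to vary like the others; none was a regulator. The log2 ratio of the tristetraprolin genes to Elavl1 was 5.3 in the second quantification and 5.22 to 5.81 with a replicate left out. A highest-to-lowest ratio has no direction, so calls of variation could only be gained, kept or lost under the alternatives run. The sign of the contrast by read files changed for 5 of the 10 regulators when 1 replicate or another was left out. Causes were not tested. No paired analysis was possible because the series has 1 group. With 4 libraries and no control, depth limits none of the 10 genes, but transcript shares on short models rest on few reads.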

Other observations

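The long non-coding gene Gm26669 overlaps Zfp36l1 on the other strand and stood at 31.48, 29.88, 105.8 and 93.67 TPM in replicates 1 to 4, so the libraries with 4 read files were above those with 6. Its order of libraries differs from that of Zfp36l1, and since the strand setting is not stated, reads of the 2 genes cannot be told apart here. The other genes that overlap a regulator had at most 4.85 TPM in any library (Ccl25, beside Elavl1).

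Il10 (chr1:131019845-131024974, plus strand) is the neighbour of Mapkapk2 and lies 28725 bases from it. Il10 stood at 127.7, 575, 384.6 and 664.1 TPM in replicates 1 to 4. Both genes were highest in replicate 4 and lowest in replicate 1. Between replicates 3 and 1 they differed in size, since Mapkapk2 stood at 197.8 and 176.3 TPM there.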
